A study of Mus musculus with 9 samples.

Results

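BMP target genes were followed in embryoid bodies made from mouse pluripotent stem cells (PSCs) with or without NRF1 overexpression (OE). The group held 9 genes that are transcribed in response to bone morphogenetic protein (BMP) signalling and that were chosen by gene symbol: the DNA-binding inhibitors Id1, Id2, Id3 and Id4, the inhibitory SMADs Smad6 and Smad7, the homeobox genes Msx1 and Msx2, and the pseudoreceptor Bambi. Each symbol was found once in the count tables, which list 56691 genes, and 9 of 9 passed the filter on low counts that left 16903 genes for testing.

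The libraries came from BVSC PSCs, a line that carries the germline reporters Blimp1-mVenus (BV) and Stella-CFP (SC). PSCs with an Nrf1 expression vector (NRF1 OE) or with an empty vector (Ctrl) were grown as embryoid bodies in serum medium whose listed components include no BMP ligand, and both received doxycycline at 1.5 μg/mL from day 2 to day 5. At day 5 the mVenus-positive cells (BV+, primordial germ cell-like cells or PGCLCs) and mVenus-negative cells (BV-, somatic cells) were sorted apart. There were 2 libraries of BV+ NRF1 OE, 3 of BV- NRF1 OE, 2 of BV+ Ctrl and 2 of BV- Ctrl. All came from 1 reporter line. The study's methods call the RNA-seq replicates biological, and the labels do not tie libraries to separate differentiations, so p-values measure the spread between these libraries, which may in part be technical.

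BMP ligands bind type I and type II serine/threonine kinase receptors, which phosphorylate SMAD1 and SMAD5. These form complexes with SMAD4 and activate the genes described here, several of which encode proteins that damp the same pathway. In the mouse embryo, BMP4 from the extraembryonic ectoderm acts on the proximal epiblast and is required for primordial germ cells to form, and Blimp1 (Prdm1) is among the genes induced there.

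Levels are given in CPM, raw read counts scaled to the same library total after TMM (trimmed mean of M values) correction, and differences as log2 fold changes ± SE from edgeR's quasi-likelihood test. A gene was called at an adjusted p (Benjamini-Hochberg over the 16903 genes) below 0.05. Libraries held 13702162 to 19625460 counts. Nrf1 itself stood at 95.6 and 99.3 CPM in BV+ NRF1 OE against 91.0 and 90.3 in BV+ Ctrl (log2 fold change 0.10 ± 0.104, adjusted p = 0.489) and at 119, 122 and 125 against 99.0 and 105 in BV- cells (0.26 ± 0.0951, adjusted p = 0.0718). Nrf1 was higher in each NRF1 OE library than in the Ctrl libraries of the same sort, by amounts that did not pass the test. The sort label was read against 8 germ cell markers. Of these, 1 (Itgb3) was higher in every BV+ than in every BV- library within Ctrl and within NRF1 OE. By contrast, 5 of the 8 were lower without overlap in BV+ than in BV- cells under Ctrl and 6 of the 8 under NRF1 OE. Separation without overlap was common: under Ctrl, 22.6% of all genes tested were higher in BV+ cells in this way. The shares that were lower are not given here. Prdm1, the gene behind the mVenus reporter, stood at 57.4 and 62.7 CPM in BV+ Ctrl and 58.5 and 57.2 in BV- Ctrl. These markers as a list thus do not bear out the germ cell label, and BV+ and BV- are used below as names of the sorts alone. The study also measured germ cell marker genes between the sorts by real-time RT-PCR, which is not compared here.

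The promoters of Id3, Id2, Smad6 and Id4 are shown because Id3, Id2 and Smad6 differed between groups in the comparisons that follow, while Id4 stayed nearly level. Each runs 5′ to 3′ on the gene's strand from 250 bases before to 50 bases after the start site (RefSeq, GRCm38.p6). Id3 lies at chr4:136143572-136143871 (plus strand), Id2 at chr12:25096043-25096342 (minus strand), Smad6 at chr9:64022010-64022309 (minus strand) and Id4 at chr13:48260866-48261165 (plus strand). Capitals mark matches on either strand to GGCGCC, the GC-rich element that SMAD1 and SMAD5 can bind, and to CAGAC, which SMAD4 can bind (it reads GTCTG on the opposite strand).
Id3: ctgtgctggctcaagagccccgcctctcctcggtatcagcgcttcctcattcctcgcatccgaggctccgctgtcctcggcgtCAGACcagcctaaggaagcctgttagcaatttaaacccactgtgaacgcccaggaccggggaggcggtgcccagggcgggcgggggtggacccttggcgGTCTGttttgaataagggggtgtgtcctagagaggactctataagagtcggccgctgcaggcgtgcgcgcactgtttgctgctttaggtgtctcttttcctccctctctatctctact
Id2: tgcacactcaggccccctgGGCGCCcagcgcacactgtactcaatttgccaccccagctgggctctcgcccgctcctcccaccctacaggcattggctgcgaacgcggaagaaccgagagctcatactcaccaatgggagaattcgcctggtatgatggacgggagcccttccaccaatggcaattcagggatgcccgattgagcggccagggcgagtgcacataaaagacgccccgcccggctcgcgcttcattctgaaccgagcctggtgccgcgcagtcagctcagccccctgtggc
Smad6: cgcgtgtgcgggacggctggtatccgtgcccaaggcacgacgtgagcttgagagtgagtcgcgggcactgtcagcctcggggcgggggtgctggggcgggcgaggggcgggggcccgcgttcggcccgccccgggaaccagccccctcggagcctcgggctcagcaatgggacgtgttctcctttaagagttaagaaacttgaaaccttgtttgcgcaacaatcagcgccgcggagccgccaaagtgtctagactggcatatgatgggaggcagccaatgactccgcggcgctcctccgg
Id4: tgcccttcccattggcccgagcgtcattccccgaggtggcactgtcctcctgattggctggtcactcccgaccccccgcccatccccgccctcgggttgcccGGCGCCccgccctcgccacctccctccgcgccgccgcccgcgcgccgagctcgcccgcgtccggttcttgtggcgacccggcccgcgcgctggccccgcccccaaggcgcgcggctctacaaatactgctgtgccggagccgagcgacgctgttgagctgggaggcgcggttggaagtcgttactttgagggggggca

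CAGAC was found in the Id3 promoter, with its first base at positions -167 and -68 relative to the start site, and 49.6% of the 32851 promoters in the table held it. GGCGCC was found in the Id2 promoter at -231 and in the Id4 promoter at -148, against 11.9% of all promoters. The NRF1 palindrome, a pair of GCGC half-sites with AT between them (0.971% of all promoters) or with any 2 bases between them (6.23%), was in none of the 6 member promoters searched, those of Msx1 and Msx2 included. No matches overlapped. A match or its absence in this window says nothing of binding. The promoters were rich in GC, at 63.3% for Id2, 60.0% for Id3, 66.3% for Smad6 and 73.3% for Id4 against a median of 52.7% over all promoters, and Id4 held 39 CpG sites against a median of 7. Id1, Smad7 and Bambi have no entry in the table.

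The comparison of NRF1 OE with Ctrl within the cells sorted as BV+ asked whether the BMP target genes differed with NRF1. Id3, Bambi, Smad6 and Id1 were higher with NRF1 OE, by 3.26-, 2.07-, 1.82- and 1.63-fold. These 4 of 9 members were called, all in the higher direction, where 6.24% of the genes tested were called higher and 8.02% in either direction. Id2, Msx1 and Msx2 had higher values in both NRF1 OE libraries and missed the threshold, Id4 was near level, and Smad7 had lower values. The members' median log2 fold change was 0.87, against 0.04 over all genes tested. In bulk libraries, a larger share of cells that express a gene and more RNA per cell cannot be told apart.

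**Figure D1:**
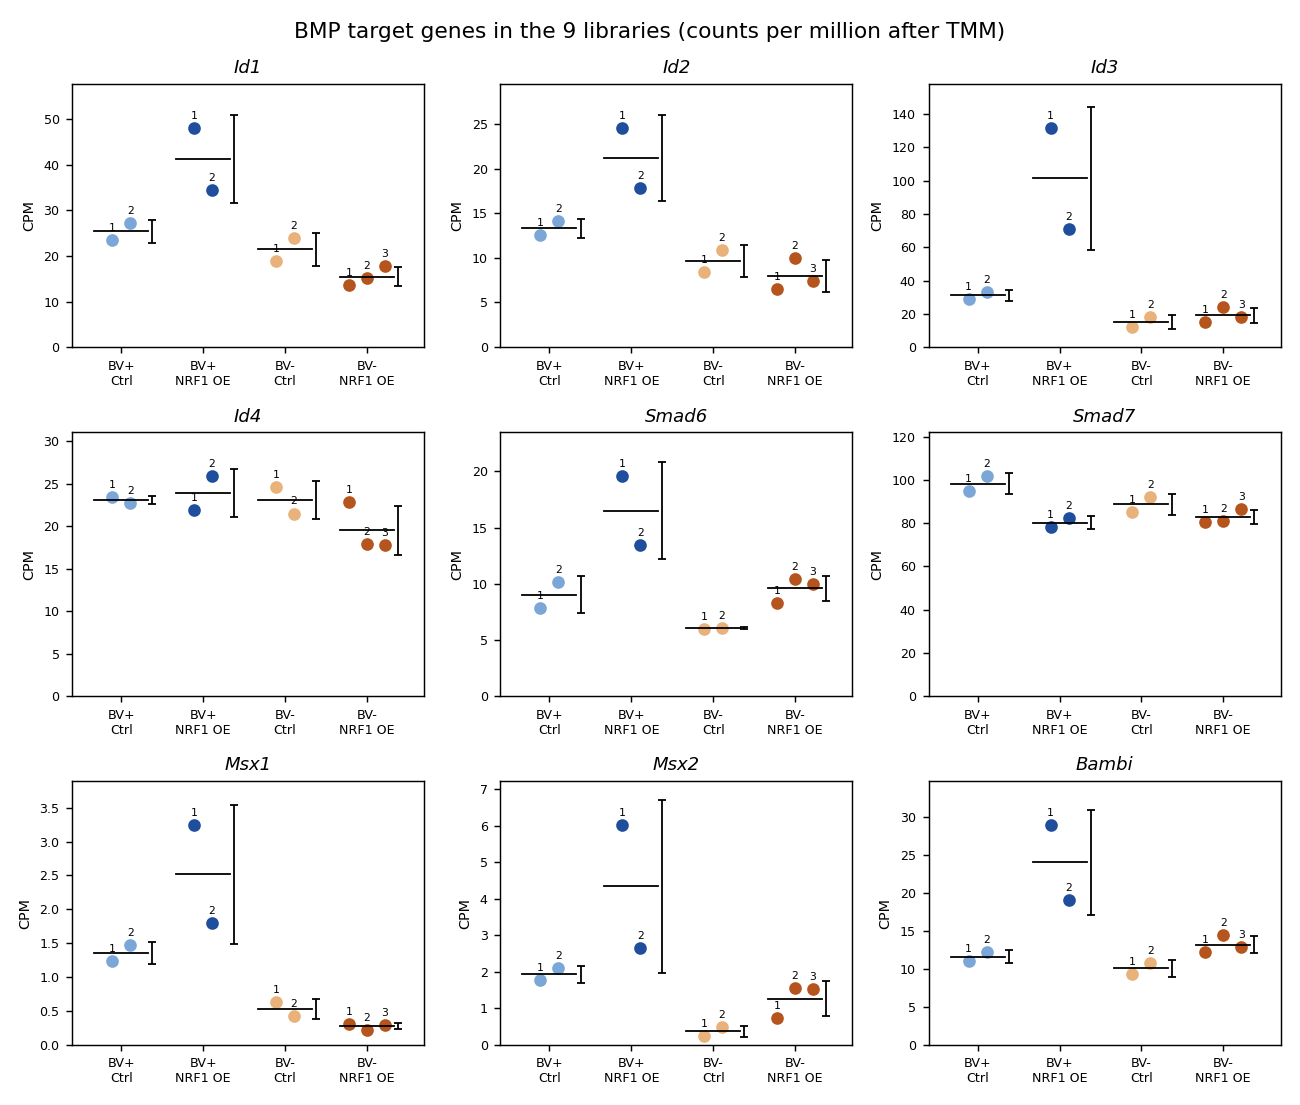
Level of each of the 9 BMP target genes in CPM, in separate panels with linear axes from 0, where each numbered point is 1 library, the horizontal line the group mean and the error bar its SD. Id1, Id2, Id3, Smad6, Bambi, Msx1 and Msx2 have both BV+ NRF1 OE points above both BV+ Ctrl points, whereas the Id4 groups overlap and Smad7 has its 2 highest points in BV+ Ctrl.

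The ID proteins pair with basic helix-loop-helix factors and keep them off DNA. Id3 stood at 132 and 71.1 CPM in BV+ NRF1 OE and 28.9 and 33.4 in BV+ Ctrl (log2 fold change 1.70 ± 0.288, adjusted p = 0.0134). Both NRF1 OE libraries lay above both Ctrl libraries, and replicate 1 lay far above replicate 2. Id1 stood at 48.2 and 34.5 CPM against 23.6 and 27.2 (0.70 ± 0.193, adjusted p = 0.0481), again without overlap. Id2 stood at 24.6 and 17.8 CPM against 12.6 and 14.1 (0.67 ± 0.221, adjusted p = 0.0772) and did not pass the test. Id4 stood at 21.9 and 25.9 CPM against 23.4 and 22.7 (0.05 ± 0.162, adjusted p = 0.849), with the groups overlapping. Id4 is overlapped on the opposite strand by the antisense gene A330033J07Rik and the lincRNA Gm49291, and the strand setting of the counting is not stated, so its level is uncertain.

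Among the feedback inhibitors, SMAD6 mainly restrains BMP signalling and SMAD7 restrains both BMP and TGF-β signalling, while BAMBI resembles a type I receptor without a kinase domain. Bambi stood at 29.0 and 19.1 CPM in BV+ NRF1 OE and 11.0 and 12.2 in BV+ Ctrl (1.05 ± 0.198, adjusted p = 0.0184). Smad6 stood at 19.6 and 13.4 CPM against 7.85 and 10.2 (0.87 ± 0.212, adjusted p = 0.0367). Neither gene overlapped between the groups, and replicate 1 was again the higher NRF1 OE library. Smad7 stood at 78.3 and 82.4 CPM against 95.0 and 102 (-0.29 ± 0.110, adjusted p = 0.103). Its NRF1 OE libraries lay below its Ctrl libraries, the opposite order to Smad6.

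Msx1 and Msx2 encode homeobox repressors and were the least abundant members. Msx2 stood at 6.02 and 2.66 CPM against 1.77 and 2.10, from 117 and 49 reads against 27 and 40 (1.16 ± 0.425, adjusted p = 0.0953). Msx1 stood at 3.24 and 1.79 CPM against 1.24 and 1.47, from 63 and 33 reads against 19 and 28 (0.89 ± 0.365, adjusted p = 0.123). In both genes the lower NRF1 OE library lay just above the higher Ctrl library. Counting every member, 7 were higher without overlap between the groups, where 38.1% of the genes tested were, and Smad7 was lower without overlap (32.0% of genes). Under the study's own rule, an unadjusted p below 0.05 with an absolute log2 fold change above 0.58, 7 of 9 members were higher, against 9.78% of genes.

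These calls, like those of all genes, depended on single libraries. Without BV+ NRF1 OE replicate 1, Id3 was 1.19 (adjusted p = 0.170), Bambi 0.72 (0.213), Smad6 0.57 (0.334) and Id1 0.44 (0.400) on the log2 scale, and edgeR called 0 of 9 members and 0 of the 17620 genes then tested (3 members and 2253 genes had an unadjusted p below 0.05). Leaving out BV+ Ctrl replicate 1 or 2 also left 0 members and 0 genes called (4 and 6 members, and 3586 and 2685 genes, at an unadjusted p below 0.05), and each other single omission left between 2 and 7 members. The libraries also differed in how counts moved with transcript GC content. Each gene's log2 CPM in a library was taken relative to its mean over the 9 libraries, and Spearman's rho related this deviation to GC content. Across 14249 genes, which are not independent replicates, rho was 0.309 and 0.00663 in the BV+ NRF1 OE libraries. It was 0.0445, 0.666 and 0.531 in BV- NRF1 OE and -0.561 to -0.467 in the Ctrl libraries. Every NRF1 OE library thus lay above every Ctrl library in this trend. With offsets for GC content and length, Id3 (1.33, adjusted p = 0.00395) and Bambi (1.29, adjusted p = 0.00869) were called, Id1 (0.36, adjusted p = 0.137) and Smad6 (0.43, adjusted p = 0.0862) were not, and Id2 (0.81, adjusted p = 0.0453) was called higher and Smad7 (-0.60, adjusted p = 0.00731) lower.

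**Figure D2:**
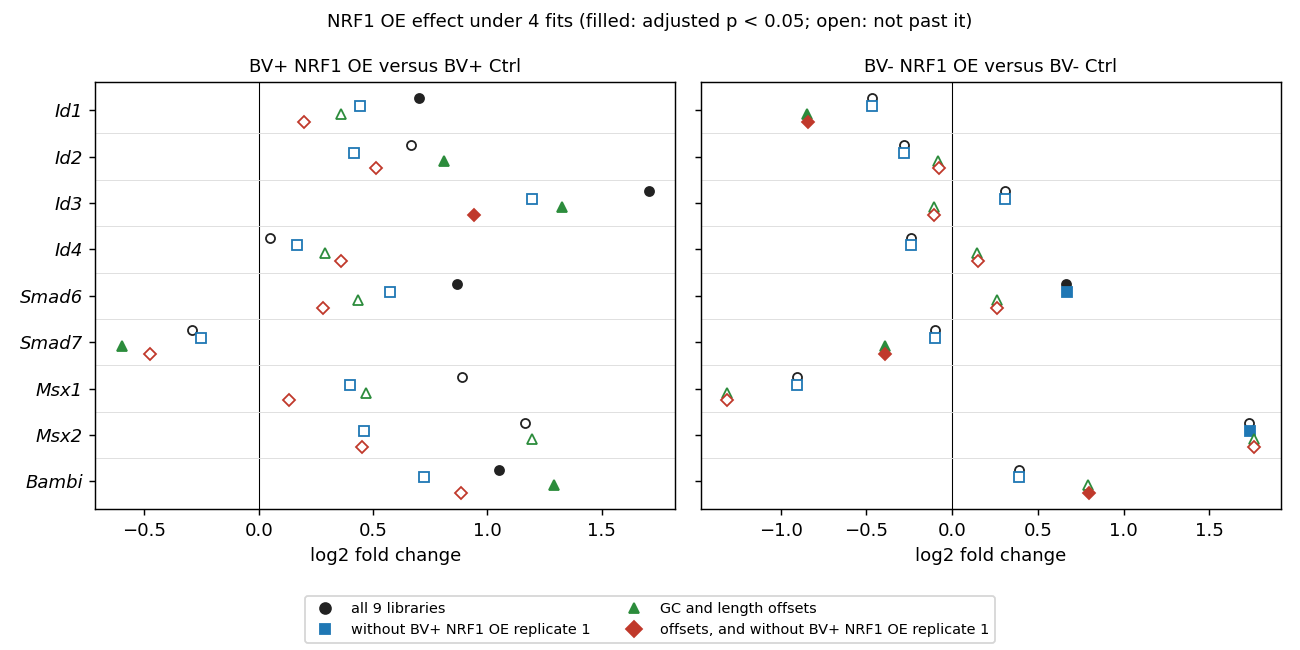
Log2 fold change of each member between NRF1 OE and Ctrl, for BV+ cells (left) and BV- cells (right), in 4 fits marked by symbol: 9 libraries, without BV+ NRF1 OE replicate 1, with GC and length offsets, and with both. Filled symbols have an adjusted p below 0.05, and in BV+ cells Smad7 lies below 0 and the other members above 0 in each of the 4 fits.

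Markers of other cell types moved with the same groups. Summed over 7 fibroblast or mesenchyme markers, the level was 711 to 1197 CPM in BV+ NRF1 OE, 198 to 204 in BV+ Ctrl, 73.4 to 108 in BV- NRF1 OE and 44.4 to 56.4 in BV- Ctrl. Of the 7, 6 were higher without overlap in BV+ NRF1 OE than in BV+ Ctrl, where 38.1% of all genes tested were. They were also higher in BV+ than in BV- cells under Ctrl (22.6% of genes) and under NRF1 OE (share not given here). Lum, the remaining one, was at 0 in 6 of the 9 libraries. Several others were near the floor. In each BV- group, 4 of the 7 stayed below 1 CPM in every library, and Dcn stood at 0.515 and 0.272 CPM in BV+ NRF1 OE against 0.196 and 0.262 in BV+ Ctrl. Surface ectoderm markers summed to 229 to 346 CPM in BV+ NRF1 OE against 122 to 123 in BV+ Ctrl, carried by Krt8 and Krt18. Of the 6 markers, only these 2 were higher without overlap, and 2 (Krt5 and Krt14, at or near 0) were lower. Trp63 and Tfap2a overlapped between the groups, Tfap2a at 4.27 and 7.45 CPM against 8.51 and 7.18. Germ cell markers summed to 407 to 409 CPM in BV+ NRF1 OE, 370 to 375 in BV+ Ctrl, 454 to 546 in BV- NRF1 OE and 387 to 394 in BV- Ctrl, and so were not higher in BV+ cells. The part of these cell types in the member values was not tested.

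**Figure D3:**
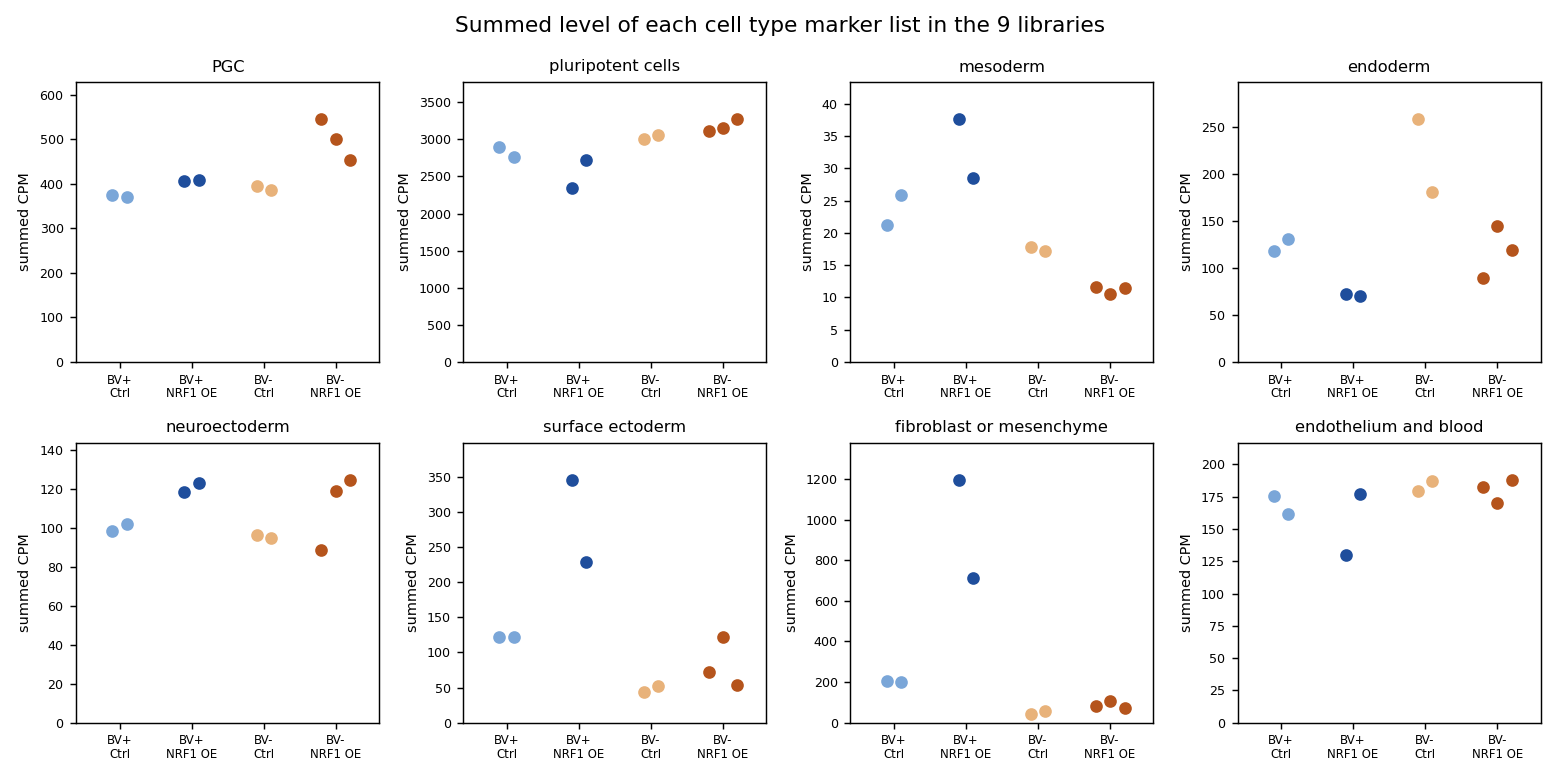
Summed level of each marker list in CPM, 1 panel per list with a linear axis from 0 and 1 point per library, by group. The sums of the fibroblast or mesenchyme list and, through Krt8 and Krt18, of the surface ectoderm list are highest in BV+ NRF1 OE. The germ cell list is not higher in BV+ than in BV- cells.

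The same comparison in BV- cells gave a different set of values. Smad6 was the 1 member called, at 1.59-fold higher with NRF1 OE, where 17.2% of the genes tested were called in either direction and 10.3% higher. Msx2 had a larger fold (3.32) that missed the threshold. The median log2 fold change over the 9 members was -0.10, against 0.01 over all genes tested, and the Id genes had values on both sides of 0, with Id3 and Id4 changing sides under GC offsets.

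Smad6 stood at 8.30, 10.4 and 10.0 CPM in BV- NRF1 OE and 5.98 and 6.08 in BV- Ctrl (0.66 ± 0.208, adjusted p = 0.0491). Every NRF1 OE library was above both Ctrl libraries. Msx2 stood at 0.722, 1.55 and 1.54 CPM against 0.252 and 0.480 (1.73 ± 0.581, adjusted p = 0.0568). The Ctrl values came from 4 and 9 reads and the NRF1 OE values from 12, 21 and 26. Bambi stood at 12.3, 14.4 and 13.0 CPM against 9.32 and 10.8 (0.39 ± 0.189, adjusted p = 0.150), also without overlap.

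Id1 took the opposite order. It stood at 13.5, 15.2 and 17.7 CPM in BV- NRF1 OE and 18.9 and 24.0 in BV- Ctrl (-0.47 ± 0.181, adjusted p = 0.0830), with each NRF1 OE library below both Ctrl libraries. Msx1 stood at 0.301, 0.221 and 0.296 CPM against 0.629 and 0.427 (-0.91 ± 0.527, adjusted p = 0.220) and was also lower without overlap, from 3 to 5 reads against 8 and 10. Id3 stood at 15.2, 23.8 and 18.0 CPM against 12.2 and 18.3 (0.31 ± 0.277, adjusted p = 0.434), and the groups overlapped. Id2 (-0.28 ± 0.217, adjusted p = 0.354), Id4 (-0.24 ± 0.149, adjusted p = 0.251) and Smad7 (-0.10 ± 0.101, adjusted p = 0.482) also overlapped between the groups. In all, 3 members were higher and 2 lower without overlap, where 29.4% and 27.6% of genes were.

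The Smad6 call in BV- cells was near the threshold. It was kept in 8 of the 23 alternative settings and lost without any 1 of BV- NRF1 OE replicates 2 and 3 and the 4 Ctrl libraries. Without a Ctrl library, edgeR called 0 or 1 of all genes (2821 to 5924 at an unadjusted p below 0.05). BV- NRF1 OE replicates 2 and 3 had counts that, relative to the mean of the 9 libraries, rose with GC content (rho 0.666 and 0.531 across genes). With both left out 0 of 9 members were called by edgeR (2 at an unadjusted p below 0.05), and with GC offsets Id1 (-0.84, adjusted p = 0.0280) and Smad7 (-0.39, adjusted p = 0.0398) were called lower in place of Smad6.

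**Figure D4:**
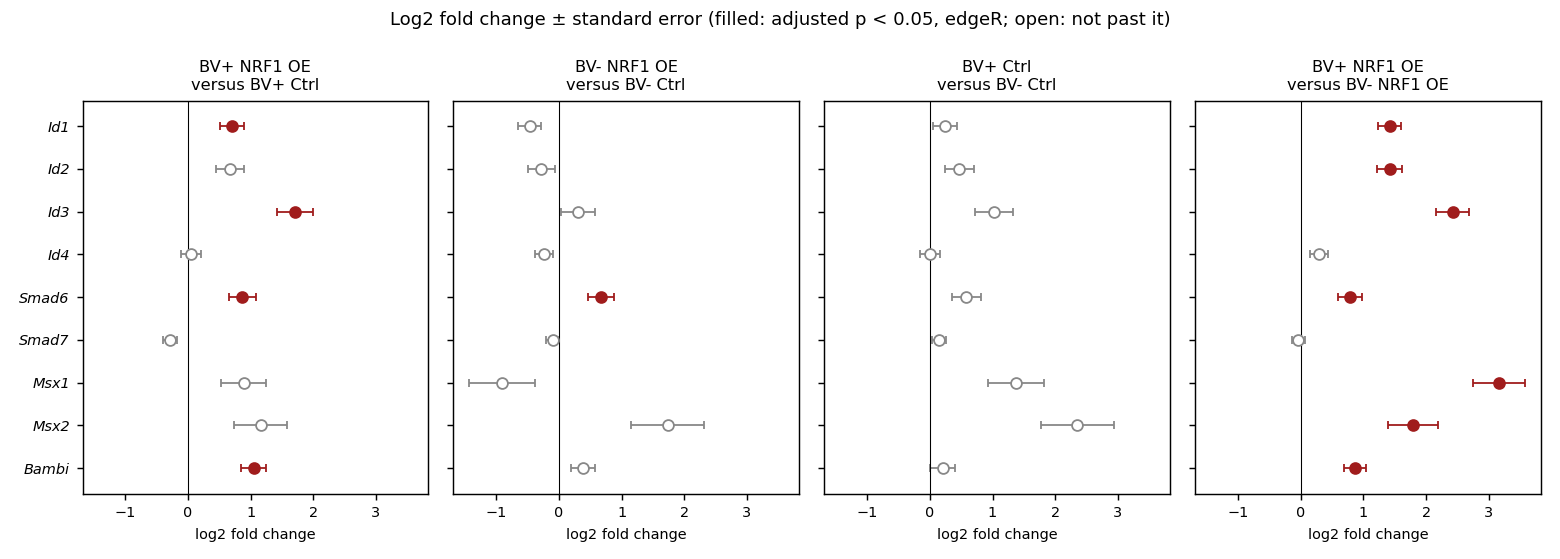
Log2 fold change of each member with its SE (bars) in both NRF1 OE against Ctrl comparisons and both BV+ against BV- comparisons, with filled markers where the adjusted p is below 0.05. Id3, Bambi, Smad6 and Id1 are called for NRF1 OE in BV+ cells, Smad6 in BV- cells, 7 members between BV+ and BV- cells under NRF1 OE, and none between them in Ctrl.

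The difference between these effects was tested as an interaction, the NRF1 OE effect in BV+ cells minus that in BV- cells. None of the 9 members, and 0.00% of the genes tested, passed the adjusted threshold in edgeR. At an unadjusted p below 0.05, 5 members had a larger value in BV+ cells (4.08% of genes did): Id1 by 1.17 ± 0.265, Id2 by 0.95, Id3 by 1.40, Msx1 by 1.79 ± 0.642 and Bambi by 0.66 on the log2 scale, with adjusted p of 0.493, 0.696, 0.571, 0.737 and 0.825. DESeq2 on the 9 libraries called Id1 (adjusted p = 0.0338), among 23 of 16903 genes called. Without the filter on low counts, edgeR called Id1 and Id3, among 108 of 33142 genes called. The Msx2 difference was -0.57. Msx1 passed the filter on low counts through its BV+ libraries, which limits its place among the 5 members.

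Under Ctrl, BV+ and BV- cells were compared to see whether the BMP target genes already differed between the sorts. None of the 9 members passed the adjusted threshold in edgeR, where 1.12% of genes did. At an unadjusted p below 0.05, Id3, Smad6 and Msx2 were higher in BV+ cells (7.77% of genes passed in either direction). Msx1 also passed at this level, but it came through the filter on low counts by its BV+ libraries and is set apart. DESeq2 on the 9 libraries called Id3 and Msx2, among 303 of 16903 genes called. Msx2 differed most, at 1.77 and 2.10 CPM in BV+ Ctrl and 0.252 and 0.480 in BV- Ctrl (2.35 ± 0.583, adjusted p = 0.101). Msx1 stood at 1.24 and 1.47 CPM against 0.629 and 0.427, the latter from 10 and 8 reads. Its fold is not given since it had to be high in BV+ cells to be tested. Id3 stood at 28.9 and 33.4 CPM against 12.2 and 18.3 (1.02 ± 0.297, adjusted p = 0.197), and Smad6 at 7.85 and 10.2 against 5.98 and 6.08 (0.58, adjusted p = 0.485). Among the remaining members Id2 lay highest at 0.47 and Id4 was level between the sorts. Without overlap, 7 of 9 were higher in BV+ cells, Msx1 with its limit among them, against 22.6% of genes.

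Under NRF1 OE the gap between the sorts was wide. Of 9 members, 7 were called higher in BV+ than in BV- cells (6 without Msx1, which passed the filter on low counts through its BV+ libraries), where 9.90% of the genes tested were called higher and 13.8% in either direction. Msx1, with 63 and 33 reads in BV+ NRF1 OE against 3 to 5 in BV- NRF1 OE, was listed at 3.24 and 1.79 CPM against 0.301, 0.221 and 0.296, and its fold is not given since it had to be high in BV+ cells to be tested. Id3 was 5.36-fold higher (2.42 ± 0.259, adjusted p = 9.62e-05), and Id1 (1.42 ± 0.176, adjusted p = 0.000277) and Id2 (1.42 ± 0.205, adjusted p = 0.000801) differed by nearly the same amount. Msx2 (1.78 ± 0.400, adjusted p = 0.0124), Bambi (0.87 ± 0.177, adjusted p = 0.00755) and Smad6 (0.79 ± 0.190, adjusted p = 0.0184) were called as well. Id4 (0.29, adjusted p = 0.230) and Smad7 (-0.04, adjusted p = 0.828) were not, and their groups overlapped. Id1, Id2 and Id3 were called in 23 of 23 alternative settings. Smad6, Msx2 and Bambi lost the call without BV+ NRF1 OE replicate 1 (0.49, 1.08 and 0.54, with adjusted p of 0.215, 0.202 and 0.121), and Bambi also with GC offsets (0.56, adjusted p = 0.0708). This comparison shares its libraries with those above, so the values are not independent of them.

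Between genes, levels can be compared only per transcript length, for which the authors' FPKM, a count scaled by transcript length and library size, was used. Averaged over the 9 libraries, Id3 (21.9 FPKM, range 6.89 to 72.9), Id1 (21.4, 11.5 to 41.1) and Smad7 (19.3, 17.2 to 23.1) were the most abundant members, with ranges that overlapped. Id4 (5.74), Id2 (5.13), Smad6 (3.18) and Bambi (2.87) followed, and Msx2 (0.58) and Msx1 (0.35) were near the lower end. The leading gene depended on the group. In BV+ NRF1 OE cells Id3 stood first at 56.4 ± 23.3 FPKM (SD, n = 2), followed by Id1 at 35.5 ± 7.96 and Smad7 at 17.7 ± 0.827. The Id3 and Id1 ranges overlapped across the libraries. Within each library Id3 lay above Id1, at 72.92 against 41.11 FPKM in replicate 1 and 39.92 against 29.85 in replicate 2. In BV+ Ctrl cells Id1 (22.4 ± 2.28) and Smad7 (22.3 ± 1.10) could not be ordered beyond their spread. In BV- Ctrl cells Smad7 (19.8 ± 0.983) and Id1 (18.6 ± 3.02) were likewise close, above Id3 (8.57 ± 2.38). In BV- NRF1 OE cells Smad7 (17.9 ± 0.538, n = 3) stood above Id1 (13.1 ± 1.67) and Id3 (10.4 ± 2.52), which were close to each other.

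The rest of the pathway was read from lists of ligands, receptors, antagonists, other responsive transcription factors and E proteins. The counts of calls below stand beside 8.02% of all genes tested in BV+ cells and 17.2% in BV- cells, and the lists themselves were not tested. Of 14 BMP ligand genes, 6 were expressed enough to test, and Bmp2 was called higher in BV+ cells with NRF1 OE, at 3.55 and 2.17 CPM against 0.720 and 0.995 (1.72, adjusted p = 0.0343). All 6 had log2 fold changes above 0 (median 0.53). Bmp4, named here after its values were seen, stood at 8.18 and 5.33 CPM against 3.99 and 5.13 in BV+ cells and did not pass the test. In BV- cells 0 of the 6 were called by edgeR, and 0 had an unadjusted p below 0.05.

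Of 11 receptor and SMAD transducer genes, all tested, 1 was called in BV+ cells: Acvrl1, which encodes the type I receptor ALK1, was higher at 8.85 and 3.80 CPM against 1.70 and 1.73 (1.88, adjusted p = 0.0388). In BV- cells 3 of the 11 were called, all lower with NRF1 OE. Bmpr1a, the type I receptor of BMP2 and BMP4, stood at 78.2, 45.5 and 63.5 CPM against 111 and 104 (-0.78, adjusted p = 0.0317). The type II receptor gene Bmpr2 (-0.93, adjusted p = 0.0407) and the transducer gene Smad5 (-0.45, adjusted p = 0.0473) were also lower. Each of the 3 was lowest in BV- NRF1 OE replicate 2 (Bmpr2 at 11.7 and Smad5 at 32.6 CPM). Relative to the mean of all libraries, counts in that library rose most with GC content (rho 0.666). None of the pathway genes was refitted with GC offsets. The list's median was -0.09 in BV+ cells and -0.40 in BV- cells.

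Among 13 genes for antagonists and extracellular modulators, 10 were tested and 2 were called higher in BV+ cells with NRF1 OE. Nog, whose product noggin binds BMP ligands, stood at 4.07 and 3.42 CPM against 1.11 and 0.891 (1.91, adjusted p = 0.0134). Bmp1, which despite its name encodes a metalloprotease that cleaves chordin and procollagen, stood at 46.0 and 29.4 CPM against 10.3 and 15.0 (1.57, adjusted p = 0.0134). In BV- cells 0 of the 10 were called by edgeR, and 2 had an unadjusted p below 0.05. Bmp1 was also the 1 pathway gene called between BV+ and BV- cells under Ctrl (1.91, adjusted p = 0.0100), where 1.12% of all genes tested were called. Under NRF1 OE 7 of the 10 were called higher in BV+ cells, where 9.90% of all genes tested were. Nog, Grem1 and Chrdl1, among the 10, passed the filter on low counts through their BV+ libraries, so their direction between the sorts was partly fixed beforehand.

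Of 8 other BMP-responsive transcription factor genes, 6 were tested. Gata2 was called higher in BV+ cells with NRF1 OE, at 7.51 and 6.14 CPM against 2.95 and 3.35 (1.11, adjusted p = 0.0330), and Tbx3 was called lower in BV- cells, at 7.82, 9.34 and 10.1 CPM against 15.2 and 17.2 (-0.84, adjusted p = 0.0317). The 3 E protein genes, whose products are partners of the ID proteins, gave 0 calls by edgeR in BV+ cells, with 1 at an unadjusted p below 0.05. In BV- cells Tcf3 was higher (277, 347 and 309 CPM against 203 and 234, 0.51, adjusted p = 0.0342) and Tcf4 lower (45.9, 25.2 and 40.4 against 73.5 and 61.2, -0.85, adjusted p = 0.0343). Tcf3 was highest and Tcf4 lowest in BV- NRF1 OE replicate 2, the library with the largest GC trend (rho 0.666). The omissions that left 0 of all genes called in BV+ cells (BV+ NRF1 OE replicate 1 or either BV+ Ctrl library) left none of these BV+ calls either, nor, in BV- cells, did the omission of either BV+ Ctrl library or BV- Ctrl replicate 1, where 0 of all genes were called.

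**Figure D5:**
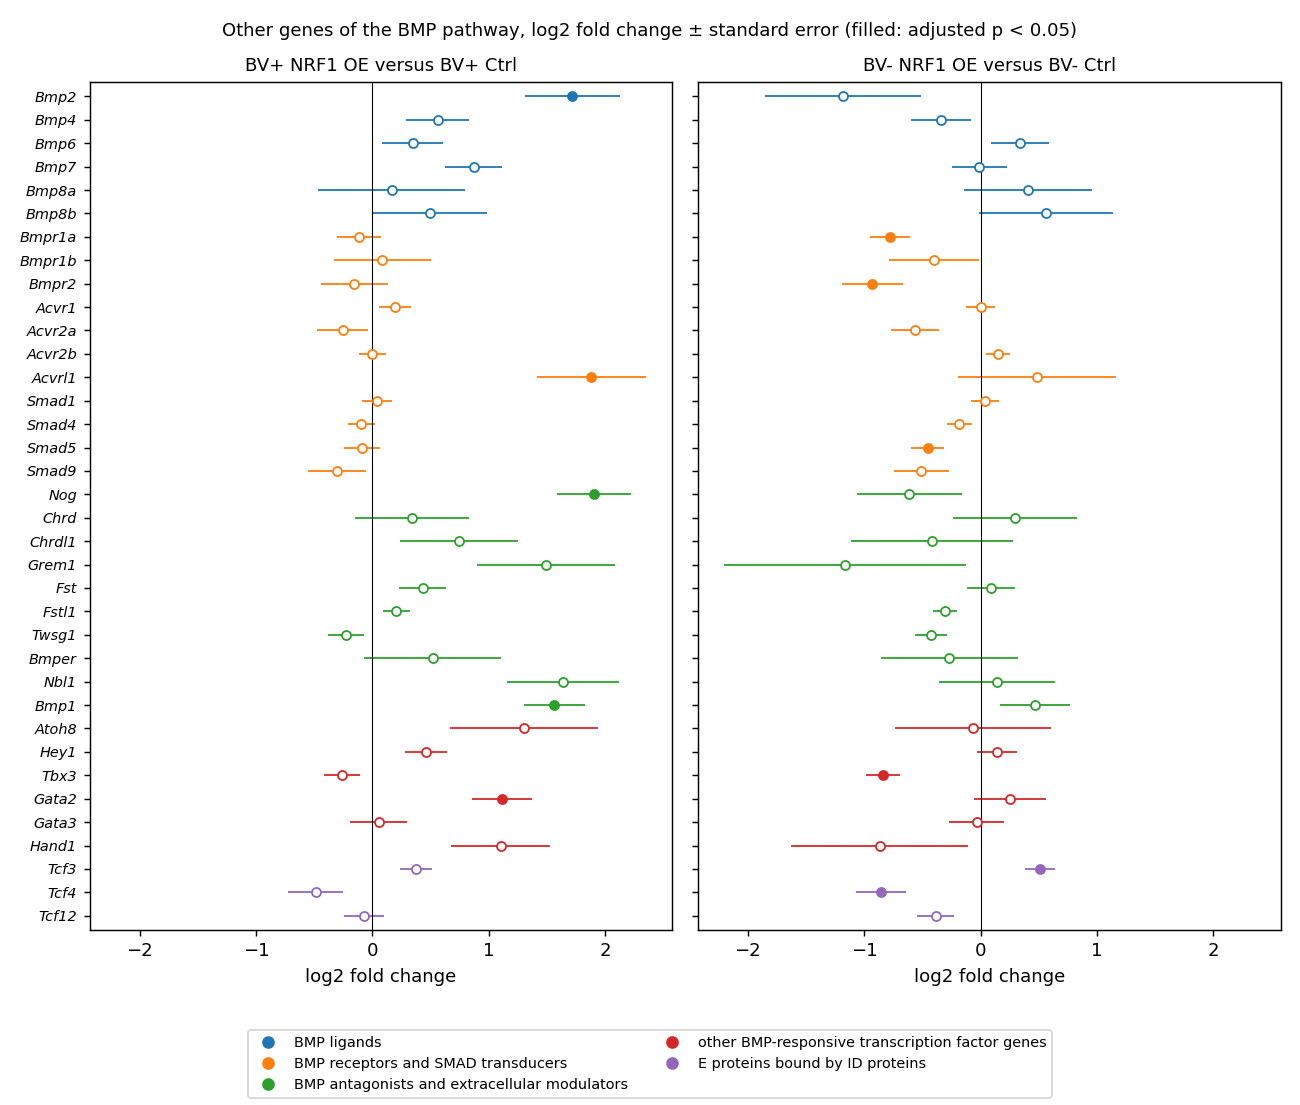
Log2 fold change of each tested gene of the BMP pathway lists between NRF1 OE and Ctrl, in BV+ and in BV- cells, with SE bars, colours by list and filled points where the adjusted p is below 0.05. In BV+ cells the called genes (Bmp2, Acvrl1, Nog, Bmp1 and Gata2) lie above 0, and in BV- cells those below 0 are Bmpr1a, Bmpr2, Smad5, Tbx3 and Tcf4, with Tcf3 above it.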

How the data were processed

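Poly(A) RNA-seq libraries (paired-end, 2×150 bases) came from sorted day 5 cells. The authors trimmed reads with Cutadapt 1.9.1, aligned them with HISAT2 2.0.1 to GRCm39 and deposited raw counts per gene from HTSeq 0.6.1, with FPKM beside them. The strand setting is not given in the sources used here. The study's methods name DESeq2 1.26.0.

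From the counts, genes passing edgeR's filterByExpr (16903 of 33142 with a count) were tested in 1 fit of the 9 libraries (R 4.3.3, edgeR 4.0.16, quasi-likelihood, two-sided, TMM factors 0.969 to 1.03, biological coefficient of variation 0.129). Groups came from the sample titles. Within each group, no pair of libraries agreed within sampling noise. Pairs from different groups were not checked. Pathway genes named are at most 4 per list, those with an adjusted p below 0.05 in either NRF1 OE comparison, lowest first. The members and lists were chosen with earlier results of these data known. The script was tested on simulated data. Alternatives (23 settings, including DESeq2 1.42.0) are given in the closing section. GC content matched 98.6% of genes. FPKM served only to compare genes.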

Additional observations from a re-analysis of the deposited data

Results flagged for a closer look

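Id1 and Msx1 took opposite directions in the sorts: every NRF1 OE library lay above both Ctrl libraries in BV+ cells, and every NRF1 OE library lay below both Ctrl libraries in BV- cells. The difference between the effects was 1.17 for Id1 (adjusted p = 0.493, edgeR interaction over all genes tested) and 1.79 for Msx1 (adjusted p = 0.737), so neither passed. The Msx1 values in BV- cells rest on 3 to 10 reads a library, and the gene passed the filter on low counts through its BV+ libraries.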

How the results depend on the processing

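Of 1016 member results under the 23 alternatives, 890 kept their direction and their side of the threshold, 57 kept the direction and lost the call, 49 gained one and 20 changed sign. With 2 libraries in most groups, a lone library left in a group is assumed to vary like the others, and the smallest members (Msx1 and Msx2) are limited by read depth. Calls over all genes moved with the setting too, so member counts are to be read beside them. For NRF1 OE in BV+ cells, edgeR on these groups alone called 4371 of 16286 genes, against 1355 of 16903 in the main fit. In BV- cells it called 0 of 15840 (5594 at an unadjusted p below 0.05), no filter 4392 of 33142 and GC offsets 1012 of 16662, against 2912. Between sorts under Ctrl, this setting called 889 of 16118 and no filter 529 of 33142, against 190. For NRF1 OE in BV+ cells (4 members called), edgeR on these groups alone called 7, the fit without BV- NRF1 OE replicates 2 and 3 called 7, GC offsets without BV+ NRF1 OE replicate 1 called 1, and leaving out 1 library at a time called 0 to 7. In BV- cells (1 called), library size alone called 0, upper-quartile factors 2, no filter 3, a mean of at least 10 counts 0, DESeq2 on 9 libraries 2, DESeq2 and edgeR on these groups alone 0 each, GC offsets 2, the omission of BV- NRF1 OE replicates 2 and 3 0, GC offsets without BV+ NRF1 OE replicate 1 3, and leaving out 1 library 0 to 2. Between sorts under Ctrl (0 called), no filter, both DESeq2 fits and edgeR on these groups alone called 2 each, GC offsets 1, both settings added after seeing the data 2, and leaving out 1 library 0 to 2. Under NRF1 OE (7 called), GC offsets without BV+ NRF1 OE replicate 1 called 4 and leaving out 1 library 4 to 7. For the interaction (0 called), no filter called 2, DESeq2 1 and leaving out 1 library 0 to 1.

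Whether the replicate numbers pair the libraries could not be settled. Correlations of same-numbered deviations ran from -0.580 to 0.540 across 10984 genes, highest between BV- NRF1 OE and BV- Ctrl (0.507 and 0.540). In a group of 2 libraries the deviations mirror each other, so the check cannot decide the question. With the replicate block, 0 members were called for NRF1 OE in BV+ cells (3 of the 16903 genes tested), 0 in BV- cells (0 genes, with 5117 at an unadjusted p below 0.05) and 4 between sorts under NRF1 OE (1064 genes). With block and GC offsets the counts were 3 members (954 genes), 0 (5 genes) and 6 (2884 genes).

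Sign changes concerned mostly Id4 and Id3. For NRF1 OE in BV+ cells, Id4 was -0.072 without BV+ NRF1 OE replicate 2 (-0.072 to 0.17 over single omissions). In BV- cells Id3 was -0.11 and Id4 0.15 with GC offsets, -0.092 and 0.22 with block and offsets, -0.11 and 0.15 with offsets without BV+ NRF1 OE replicate 1, and Id3 was -0.019 without BV- NRF1 OE replicates 2 and 3. Between sorts under Ctrl, Id4 was -0.016 with DESeq2 size factors and with DESeq2, -0.020 with a mean of at least 10 counts, -0.081 with GC offsets, with or without the block, -0.022 without BV+ Ctrl replicate 1, -0.12 without BV- Ctrl replicate 2 (-0.12 to 0.10 over single omissions) and -0.073 with offsets without BV+ NRF1 OE replicate 1. Under NRF1 OE, Id4 was -0.013 with block and offsets and Smad7 0.0042 without BV- NRF1 OE replicate 3 (-0.080 to 0.0042 over single omissions). For the interaction, Smad6 was -0.095 without BV+ NRF1 OE replicate 1 (-0.095 to 0.45 over single omissions) and Msx2 0.20 without BV- NRF1 OE replicates 2 and 3. The causes were not tested.

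Over all genes, counts of calls ranged from 0 to 5205 around 1355 for NRF1 OE in BV+ cells, 0 to 5847 around 2912 in BV- cells, 31 to 889 around 190 between sorts under Ctrl, 786 to 4691 around 2325 under NRF1 OE, and 0 to 108 around 0 for the interaction. The share of calls that were higher moved from 77.8% to 60.2% with upper-quartile factors and 55.1% with GC offsets in BV+ cells, from 59.5% to 45.2% with library size alone and 69.8% with GC offsets in BV- cells, and from 72.0% to 38.1% with GC offsets between sorts under NRF1 OE, where these offsets moved the median of all genes from -0.0049 to -0.11.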

Other observations

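Over the 9 libraries, the genes whose log levels were most like those of Id1 were Phlda1 (Pearson's r 0.973), Ccdc71l (0.972), Myh6 (0.972), Lrp4 (0.969) and Foxj2 (0.967), among 10984 genes. These are descriptions over libraries that share the 4 groups. Phlda1, for example, stood at 24.0 and 14.8 CPM in BV+ NRF1 OE, 10.1 and 9.85 in BV+ Ctrl, 2.71, 5.08 and 4.91 in BV- NRF1 OE and 5.35 and 6.93 in BV- Ctrl.

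The other marker lists were summed in the same way. Pluripotency markers summed to 2344 to 2725 CPM in BV+ NRF1 OE, 2757 to 2900 in BV+ Ctrl, 3118 to 3277 in BV- NRF1 OE and 3003 to 3058 in BV- Ctrl. Endoderm markers were lowest in BV+ NRF1 OE (70.2 to 72.3 CPM) and highest in BV- Ctrl (181 to 259), with 118 to 130 in BV+ Ctrl and 89.3 to 145 in BV- NRF1 OE. Mesoderm markers summed to 28.4 to 37.7 CPM in BV+ NRF1 OE against 21.1 to 25.8 in BV+ Ctrl, and to 10.5 to 11.7 in BV- NRF1 OE against 17.2 to 17.9 in BV- Ctrl. The higher sum in BV+ NRF1 OE came from Kdr, at 25.4 and 17.1 CPM against 6.55 and 8.54 in BV+ Ctrl. Of the 8 mesoderm markers, 2 were higher and 2 lower without overlap between these groups. Pdgfra, for example, was lower at 3.7 and 2.9 CPM against 6.8 and 8.1. Neuroectoderm markers summed to 88.9 to 125 CPM and endothelium and blood markers to 130.1 to 188 CPM over the 9 libraries.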
